A study of Mus musculus with 12 samples.

Results

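Collagens are triple helices of 3 alpha chains, and each chain is the product of its own gene. The 44 collagen chain genes described here are the genes on the array whose symbol has the form Col, a number, a and a number, out of 37074 genes measured in cecum of mice after cautery or sham surgery. Fibrillar chains (types I, II, III, V, XI, XXIV and XXVII) form the cables of connective tissue, type IV chains form the sheet of the basement membrane together with laminin and the type XV and XVIII collagens, and the FACIT chains (fibril-associated collagens with interrupted triple helices) sit on the surface of fibrils. The remaining chains comprise the beaded filaments of type VI, the hexagonal networks of type VIII and X, the anchoring fibrils of type VII and membrane-bound collagens such as types XIII, XVII, XXIII and XXV. By these classes 11 genes were fibrillar, 8 belonged to the basement membrane, 9 were FACITs and 16 were other chains, and one further FACIT gene, Col21a1, had no probe. In the intestinal wall, collagen lies mainly in the submucosa, between the muscle layers and under the mesothelium, and it is laid down in quantity when a serosal wound is replaced by scar or by an adhesion.

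The mice were C57BL/6 according to the methods of the study, with no transgene or other allele, and their age was not given in the sources used here. In 9 of them the cecum was cauterized with bipolar forceps through a midline incision and sampled 3, 12 or 72 h later, and 3 mice had a sham operation. There were 3 arrays in each of the 4 groups, with RNA from cecum tissue on each. The methods place the sham samples at 0 h after the operation, so that cautery and the time since surgery cannot be told apart. The label protocols do not say how much unburned wall each sample held, and in bulk tissue a change in the number of cells of a type cannot be told apart from a change in RNA per cell.

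Each level below is the log2 intensity of the brightest probe of the gene minus the 75th percentile of that array, so a level of 0 is the 75th percentile, and levels of different genes are not on a common scale. A gene was called when the group means differed by more than 2-fold with a limma adjusted p below 0.05 (Benjamini-Hochberg over 56605 probes). Between 60.2% and 65.2% of the probes of an array passed the scanner's test of being well above background, no probe was saturated, and replicate arrays correlated at r = 0.986 to 0.994. The sham, the 3 h and 2 of the 12 h arrays lay on slide 1, while 12 h replicate 3 and the 72 h arrays lay on slide 2, so that slide and 72 h are separable only through 12 h replicate 3. All mice are labelled male, but Xist, the transcript of the inactive X chromosome, was well above background on all 12 arrays and the Y-linked Ddx3y and Eif2s3y on none of them, which goes against that label alike in every group. Of the 44 chain genes, 30 were well above background on all 12 arrays and 6 on none: Col4a3, Col4a6, Col6a6, Col9a3, Col10a1 and Col25a1.

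The 44 chain genes were called lower than sham mainly at 12 h and higher mainly at 72 h, and 4 of them (Col1a1, Col1a2, Col3a1 and Col5a2) were called in both directions. At 3 h no chain gene was called higher, where 3.26% of all genes were, and 2 were called lower (Col5a2 and Col8a2), where 4.11% were. Some further probes of Col1a1, Col1a2 and Col3a1, given below, were also called lower at 3 h. At 12 h 15 of the 44 were called lower, where 4.96% of all genes were, and 1 was called higher (Col8a1), where 4.1% were. At 72 h 16 were called higher than in sham, where 4.55% of all genes were, and 1 lower (Col4a3, not above background on any array), where 4.3% were. Between 3 h and 12 h 6 were called lower and none higher, where 1.56% and 1.89% of all genes were. Between 12 h and 72 h 23 chain genes rose and none fell at this threshold, against 4.33% and 3.19% of all genes. The median log2 fold change over the 44 genes against sham was -0.30 (3 h), -0.75 (12 h) and 0.27 (72 h), and it was 1.17 from 12 h to 72 h, beside medians over all genes of 0.08, -0.01, -0.14 and -0.14. Summed on the linear scale in units of the 75th percentile, the brightest probes of the 44 genes read 175 to 181 in sham, 110 to 141 (3 h), 81.3 to 86.8 (12 h) and 420 to 1011 (72 h).

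The counts by class were compared with those over all genes, of which 4.96% were lower at 12 h and 4.55% higher at 72 h, and no difference between classes was tested. Among the 11 fibrillar genes 4 were called lower at 12 h (median of the log2 fold changes -1.02) and 9 higher at 72 h (median 2.48). The basement membrane class had 2 of 8 genes lower at 12 h and 4 higher at 72 h. In the FACIT class 3 of 9 were lower at 12 h and 2 higher at 72 h. Among the 16 other chains 6 were lower and 1 higher at 12 h, and 1 was higher at 72 h.

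For 35 of the 44 genes RefSeq gives a promoter window on GRCm38.p6. The last 120 bases before the start site are shown for the fibrillar chains that rose at 72 h and have such a window, to show the stretch of DNA from which those transcripts begin. Capitals mark, on either strand, the CCAAT box (letters CCAAT), the TATA box (searched as TATAAA) and the GC box (searched as GGGCGG), which do not overlap here. Each is written 5′ to 3′ on the strand of the gene.
Col1a2, chr6:4505498-4505617 (plus strand): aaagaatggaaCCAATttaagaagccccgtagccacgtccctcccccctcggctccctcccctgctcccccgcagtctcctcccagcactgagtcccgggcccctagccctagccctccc
Col3a1, chr1:45311418-45311537 (plus strand): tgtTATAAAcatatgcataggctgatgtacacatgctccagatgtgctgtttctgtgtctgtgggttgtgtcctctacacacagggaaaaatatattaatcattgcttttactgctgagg
Col5a1, chr2:27886305-27886424 (plus strand): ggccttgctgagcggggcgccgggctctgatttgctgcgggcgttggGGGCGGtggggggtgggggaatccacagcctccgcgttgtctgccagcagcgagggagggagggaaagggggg
Col5a3, chr9:20815068-20815187 (minus strand): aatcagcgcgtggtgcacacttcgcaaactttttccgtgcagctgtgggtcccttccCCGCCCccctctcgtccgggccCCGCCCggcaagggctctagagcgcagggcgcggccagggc
Col11a1, chr3:114030420-114030539 (plus strand): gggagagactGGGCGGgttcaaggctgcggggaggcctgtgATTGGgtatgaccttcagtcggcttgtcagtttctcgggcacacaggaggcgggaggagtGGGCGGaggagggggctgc
Col24a1, chr3:145292352-145292471 (plus strand): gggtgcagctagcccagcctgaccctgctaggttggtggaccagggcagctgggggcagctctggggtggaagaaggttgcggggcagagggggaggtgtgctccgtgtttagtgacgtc
Among these stretches only the one of Col3a1 held a TATA box, and those of Col1a2 and Col11a1 held a CCAAT box. Over the full 250 bases before the start, a CCAAT box was present for 13 of the 35 chains and in 33.9% of the 32851 RefSeq windows of all genes, a GC box for 21 of 35 and in 32.7%, and a TATA box for 5 of 35 and in 12.4%. Of the 12 chains with a window that rose at 72 h, 7 had the CCAAT box, 8 the GC box and 1 the TATA box. A match of letters is no evidence of a bound factor.

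Type I collagen, the main load-bearing fibril of scar, is built from Col1a1 and Col1a2, and both of its genes fell at 12 h and rose at 72 h. Col1a1 read 3.95, 3.88 and 3.96 in sham, 3.30, 3.17 and 2.96 (3 h), 2.25, 2.26 and 2.39 (12 h) and 7.58, 6.95 and 6.27 (72 h). Every 12 h array lay below every sham and 3 h array, and every 72 h array lay above all others. Relative to sham, limma gave Col1a1 a log2 fold change (± SE) of -1.63 ± 0.26, adjusted p = 0.00179 for 12 h and of 3.00 ± 0.26, adjusted p = 7.71e-05 for 72 h. Levels of Col1a2 were 5.71, 5.80 and 5.69 (sham), 5.15, 5.14 and 4.72 (3 h), 3.98, 3.88 and 3.85 (12 h) and 8.50, 7.73 and 7.05 (72 h). The groups again did not overlap. The change from sham in Col1a2 was -1.83 ± 0.29, adjusted p = 0.0017 for 12 h and 2.02 ± 0.29, adjusted p = 0.00127 for 72 h, and from 3 h to 12 h it was -1.09 ± 0.29, adjusted p = 0.045. The latter call did not hold when any 1 sham, 3 h or 12 h array was left out, and averaging the 4 probes gave 0.13. The difference between both chains, Col1a1 minus Col1a2, was 0.98 ± 0.07 larger at 72 h than in sham, without overlap of the arrays (exact permutation test, two-sided p = 0.1, the smallest that 3 against 3 arrays allow). Both probes were designed on the RefSeq mRNAs and lie at chr11:94813075-94813134 and chr6:4490619-4490678 of mm9.

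Type III collagen is a homotrimer of Col3a1 that is laid down early in healing and mixes with type I fibrils. The brightest probe of Col3a1 was likewise lower at 12 h and higher at 72 h. Sham arrays gave 4.96, 4.98 and 4.92 for Col3a1, followed by 4.67, 4.31 and 4.01 (3 h), 3.46, 3.80 and 3.97 (12 h) and 7.58, 7.11 and 6.39 (72 h). The 12 h arrays were lowest and the 72 h arrays highest, without overlap with sham. Col3a1 differed from sham by -1.21 ± 0.28, adjusted p = 0.0118 at 12 h and by 2.08 ± 0.28, adjusted p = 0.000896 at 72 h in log2 fold change. The further Col3a1 probes, well above background on all 12 arrays, were not called at either time. At 12 h they had -1.04 and -1.26 (limma adjusted p = 0.289 and 0.215). At 72 h both had 1.13 (limma adjusted p = 0.241 and 0.263). Neither differed detectably from the brightest probe at these times. With the mean of all probes both Col3a1 calls against sham were lost.

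Type V chains, which nucleate fibrils and set their width, all rose at 72 h. For Col5a1 the arrays read 2.47, 2.45 and 2.59 (sham), 2.07, 1.86 and 1.56 (3 h), 1.39, 1.65 and 1.42 (12 h) and 5.98, 4.77 and 4.29 (72 h). The 12 h change of Col5a1 (-1.02 ± 0.34, adjusted p = 0.0624) was not called although its arrays did not overlap with sham, and the 72 h change (2.51 ± 0.34, adjusted p = 0.001) was. The array values of Col5a2 were -1.26, -1.16 and -1.22 (sham), -2.21, -2.56 and -3.35 (3 h), -2.50, -2.08 and -2.23 (12 h) and 1.17, 0.42 and -0.06 (72 h). Col5a2 was called lower at 3 h (-1.49 ± 0.33, adjusted p = 0.0113) and at 12 h (-1.06 ± 0.33, adjusted p = 0.045) and rose at 72 h (1.72 ± 0.33, adjusted p = 0.00535). The 12 h call was lost under 14 of 27 alternatives, among them the slide term and leaving out any 1 sham or 12 h array, with values from -1.15 to -0.59. Its 3 h and 12 h arrays overlapped, and both sets lay below sham. Col5a3 read 0.17, 0.35 and -0.06 in sham, -0.97, -0.56 and -1.01 (3 h), -0.81, -0.61 and -0.45 (12 h) and 3.80, 2.74 and 1.81 (72 h). As with Col5a1, the 12 h change of Col5a3 (-0.77 ± 0.39, adjusted p = 0.21) was not called and the 72 h change (2.63 ± 0.39, adjusted p = 0.00154) was. Col3a1 and Col5a2 are neighbours on chromosome 1, with probes at chr1:45405589-45405648 and chr1:45431204-45431263 of mm9, and moved by 2.08 and 1.72 at 72 h.

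The minor fibrillar chains Col2a1, Col11a1 and Col24a1 rose as well. Col2a1 encodes the chain of type II collagen, best known from cartilage. Levels of Col2a1 were -0.58, -0.63 and -0.64 (sham), -0.84, -1.13 and -1.79 (3 h), -2.03, -1.63 and -0.81 (12 h) and 3.36, 2.49 and 1.71 (72 h). The 72 h arrays stood above all others by more than 2 log2 units, and the log2 fold change against sham was 3.14 ± 0.42, adjusted p = 0.00093. With slide as a term in the model it was 2.11 and was not called. Of 6 cartilage markers on the array, Acan, Matn1 and Matn3 were above background on no array, the brightest probe among them, that of Sox9, changed by 0.06 on the log2 scale, and none was called higher at 72 h. Hapln1, a link protein of cartilage, was called lower at 72 h (at least 1.24-fold, with no 72 h array above background) and is named after its values were seen. Sham arrays gave -4.05, -4.31 and -4.44 for Col11a1, followed by -4.46, -4.52 and -4.71 (3 h), -4.97, -4.31 and -4.67 (12 h) and -0.74, -2.18 and -2.45 (72 h). Col11a1, a partner of type V and type II chains in mixed fibrils, rose by 2.48 ± 0.37, adjusted p = 0.00165 at 72 h, and 1 array each of the 3 h and 12 h groups was not well above background. With normexp background correction the rise of Col11a1 was 0.74 and was not called. For Col24a1 the arrays read -5.07, -4.66 and -5.50 (sham), -7.15, -4.82 and -6.08 (3 h), -5.90, -5.58 and -7.01 (12 h) and -1.15, -2.15 and -2.25 (72 h). Col24a1, a fibrillar chain studied mainly in bone, was well above background on 1 sham array, on no 3 h or 12 h array and on all 72 h arrays, so its level at 72 h was at least 8.68-fold that at 12 h. Against sham, with 1 of 3 arrays measured there, its log2 fold change was 3.23 ± 0.58, adjusted p = 0.00386, and with normexp background correction it was 0.82 and was not called. A second probe of Col24a1, well above background on 3 arrays, had 0.87 at 72 h and was not called. It differed from the brightest probe by -2.36 (limma adjusted p = 0.0175). The exceptions of the class were Col11a2, with log2 fold changes of 0.17, 0.81 and 0.20 in order of time, and Col27a1, with -0.21, -0.28 and 0.61, none of them called.

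**Figure D1:**
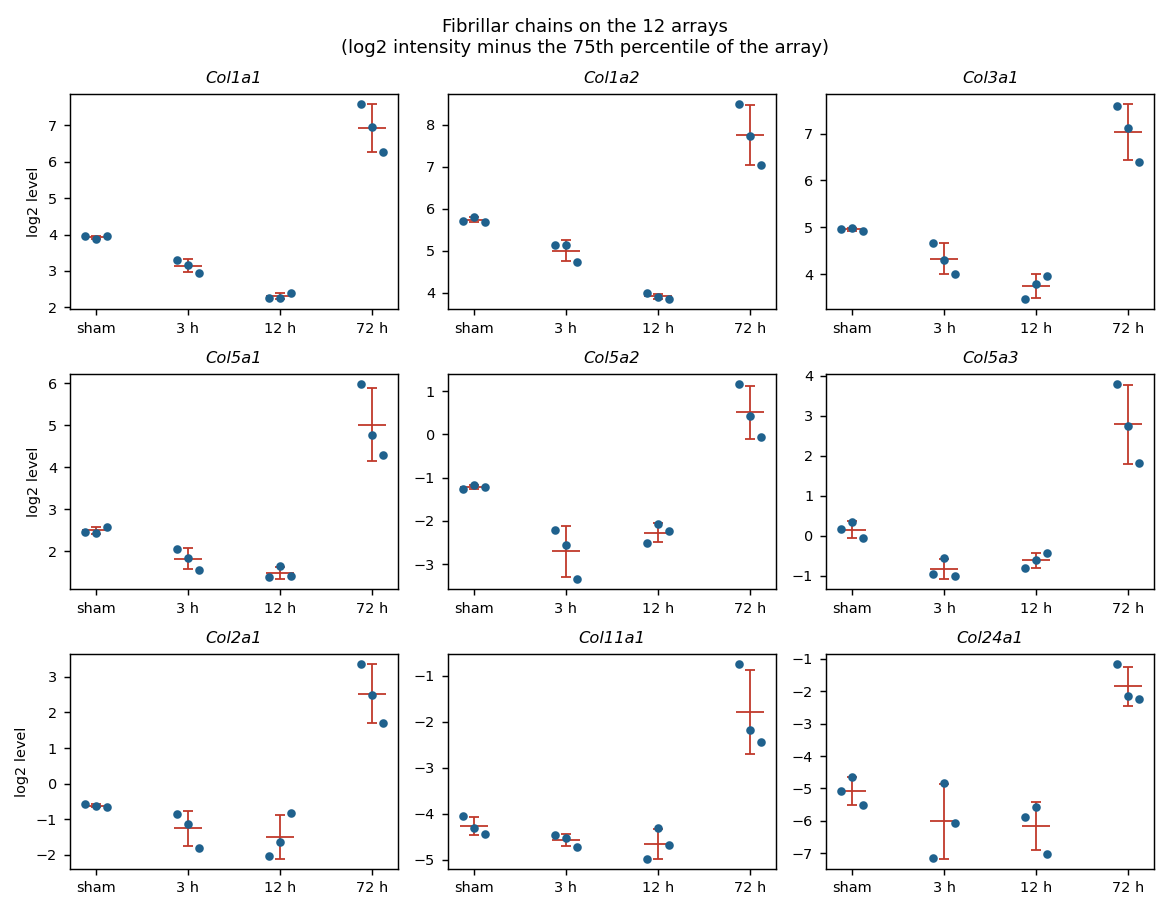
Log2 level relative to the 75th percentile of the array (y axis, a scale of its own in each panel) of 9 fibrillar chain genes, with a point for each array and the mean and SD of 3 arrays. All 72 h arrays lay above all sham arrays in every panel, and 72 h replicate 3 was the lowest of the 72 h arrays throughout.

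The 3 arrays at 72 h differed in size of response. Of the 16 genes called higher, 15 were highest on 72 h replicate 1, 1 on replicate 2, and all 16 were lowest on replicate 3, with ranges between these arrays of 0.52 to 1.98 log2 units. All 16 were nevertheless above every sham array on each of them. Without 72 h replicate 1 13 chains were called higher, and without replicate 3 17 were. Markers of other cells differed between the same arrays: the 7 adipocyte markers summed to 252 at the most and 8.62 at the least at 72 h (23.9 to 49.6 in sham), with Fabp4 at 6.79, 5.94 and 2.61 on replicates 1, 2 and 3. The 10 fibroblast markers summed to 40.7 to 103 at 72 h against 26.1 to 27.6 in sham, and 4 of them were called higher. Of 9 mesothelial markers 4 were higher, of 8 macrophage markers 7 and of 10 endothelial markers 4, where 4.55% of all genes were. None of the mesothelial markers was called lower at 72 h, and their log2 fold changes ranged from -0.54 to 4.40 (median 0.88). Their linear sum, in which bright probes weigh most, was nevertheless 165 to 220, below 221 to 268 in sham. Sums of the macrophage markers (382 to 407 against 138 to 159) and endothelial markers (19.5 to 42.8 against 17.3 to 18.1) were above sham. How far any of these cell types accounts for the collagen values was not tested.

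Markers of several cell types moved at 12 h, where 4.96% of all genes were called lower and 4.1% higher (4.3% lower at 72 h). All 10 smooth muscle markers were called lower at 12 h, with a summed level of 176 to 279 against 558 to 597 in sham, and 7 of 10 were still lower at 72 h (204 to 270). Of the 10 fibroblast markers none was lower at 12 h, and their median log2 fold change was -0.16. Only S100a4 was called higher (1.94). The summed level of the 10 fibroblast markers, in which bright probes weigh most, was 38.5 to 43.7 against 26.1 to 27.6 in sham. Of 9 mesothelial markers 4 were lower and 1 higher at 12 h (median -0.83), with a summed level of 229 to 291 against 221 to 268 in sham. Of the 7 adipocyte markers 1 was called lower, their median was -3.42, and they summed to 6.90 to 15.5. Of 8 neutrophil markers 7 were higher (median 5.31), and they summed to 823 to 861 against 81.2 to 92.3. How far any of these cell types accounts for the collagen values at 12 h was not tested.

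Type IV collagen is the network former of basement membranes, and its 6 chains are encoded in 3 head-to-head gene pairs. The common chains Col4a1 and Col4a2 both rose at 72 h. The array values of Col4a1 were 2.31, 2.33 and 2.54 (sham), 2.66, 2.61 and 2.74 (3 h), 2.83, 2.76 and 2.71 (12 h) and 4.41, 3.84 and 3.61 (72 h). Col4a2 read 2.17, 2.17 and 2.25 in sham, 2.22, 2.08 and 2.25 (3 h), 2.37, 2.37 and 2.40 (12 h) and 3.85, 3.36 and 3.03 (72 h). The sham, 3 h and 12 h arrays together ran from 2.31 to 2.83 for Col4a1 and from 2.08 to 2.40 for Col4a2, and the 72 h arrays lay above all of them. The log2 fold change at 72 h was 1.56 ± 0.18, adjusted p = 0.000392 for Col4a1 and 1.21 ± 0.17, adjusted p = 0.00126 for Col4a2. Their RefSeq start sites lie 21 bases apart on opposite strands of chromosome 8 (11312826 on the minus and 11312805 on the plus strand of GRCm38.p6), so that the stretch before each start lies in the transcript of the other. Neither was called at 12 h, with log2 fold changes of 0.37 and 0.18. The difference Col4a1 minus Col4a2 was 0.35 ± 0.06 larger at 72 h than in sham, without overlap of the arrays (exact permutation test, two-sided p = 0.1). The 72 h call of Col4a2 was lost under 3 of 26 alternatives. Among them were the slide term (limma adjusted p = 0.0923) and leaving out 72 h replicate 1.

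Col4a5, a chain of the networks with Col4a6 or with Col4a3 and Col4a4, was called lower at 12 h and not called at 72 h. Levels of Col4a5 were -0.13, -0.28 and -0.67 (sham), -0.50, -0.54 and -0.97 (3 h), -2.20, -1.88 and -2.12 (12 h) and -0.48, -0.36 and -0.66 (72 h). The 12 h arrays were below all others, and the 72 h arrays lay within the range of sham. Against sham it changed by -1.70 ± 0.18, adjusted p = 0.000168 (12 h) and -0.14 ± 0.18, adjusted p = 0.619 (72 h), and from 12 h to 72 h by 1.57 ± 0.18, adjusted p = 0.000539. Sham arrays gave -4.44, -5.13 and -5.60 for Col4a4, followed by -7.12, -6.47 and -6.43 (3 h), -6.33, -7.24 and -7.06 (12 h) and -5.22, -7.00 and -7.40 (72 h). Col4a4 was well above background on 1 sham array only and was called lower at 12 h (-1.82 ± 0.53, adjusted p = 0.0344), a value that rests on dim signals and has no bound above 1-fold. Col4a3 and Col4a6 were not well above background on any array, with levels of -7.32 to -5.50 and -7.44 to -5.68.

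Types XV and XVIII carry heparan or chondroitin sulfate chains and bind basement membranes to the tissue around them. For Col18a1 the arrays read 2.43, 2.54 and 2.75 (sham), 2.97, 2.74 and 2.52 (3 h), 2.72, 2.85 and 2.47 (12 h) and 4.35, 4.43 and 3.91 (72 h). Col18a1, the source of the fragment endostatin, rose by 1.66 ± 0.18, adjusted p = 0.000269 at 72 h. The array values of Col15a1 were -4.56, -4.70 and -4.72 (sham), -4.90, -4.15 and -5.07 (3 h), -4.62, -5.00 and -5.03 (12 h) and -2.60, -3.13 and -4.38 (72 h). Col15a1 rose by 1.29 ± 0.40, adjusted p = 0.0445, with 72 h replicate 3 close to the highest sham array and below 3 h replicate 2. That call was lost under 14 of 26 alternatives, among them leaving out any 1 sham array and a fit of only the 2 groups, and normexp background correction gave 0.15.

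Of the FACIT chains, Col12a1 and Col16a1 rose at 72 h and Col14a1 fell at 12 h. Col12a1 read -0.30, -0.39 and -0.28 in sham, -0.60, -0.48 and -0.45 (3 h), -0.86, -0.85 and -0.69 (12 h) and 2.30, 1.0 and 0.50 (72 h). Type XII is a fibril coat of stretched tissues, and the log2 fold change of its gene at 72 h was 1.59 ± 0.35, adjusted p = 0.0108. Levels of Col16a1 were 2.39, 2.50 and 2.44 (sham), 2.01, 1.93 and 1.88 (3 h), 1.45, 1.51 and 1.73 (12 h) and 4.26, 3.60 and 3.15 (72 h). For Col16a1 it was 1.23 ± 0.23, adjusted p = 0.00461. Sham arrays gave -1.75, -1.88 and -2.25 for Col14a1, followed by -2.74, -2.80 and -2.60 (3 h), -4.03, -3.65 and -3.57 (12 h) and -1.07, -1.62 and -2.15 (72 h). Type XIV is a close relative of type XII, and the log2 fold change of Col14a1 was -1.79 ± 0.25, adjusted p = 0.000843 (12 h), 0.35 ± 0.25, adjusted p = 0.376 (72 h) and, from 12 h to 72 h, 2.14 ± 0.25, adjusted p = 0.000601. Col22a1, a collagen of tissue junctions, was also lower at 12 h (-1.26 ± 0.21, adjusted p = 0.002). A dimmer probe of it, well above background on 3 arrays, had 0.24 there, a difference of 1.51 (limma adjusted p = 0.0174). The Col22a1 call was lost under 3 of 27 alternatives, among them normexp background correction and the mean of its probes, with values from -1.32 to -0.51. Col19a1, known from muscle, was called lower at 12 h, and with 2 of 3 sham arrays and no 12 h array above background its level was at least 1.45-fold lower there. Col20a1, Col9a1 and Col9a2 were not called in any comparison.

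**Figure D2:**
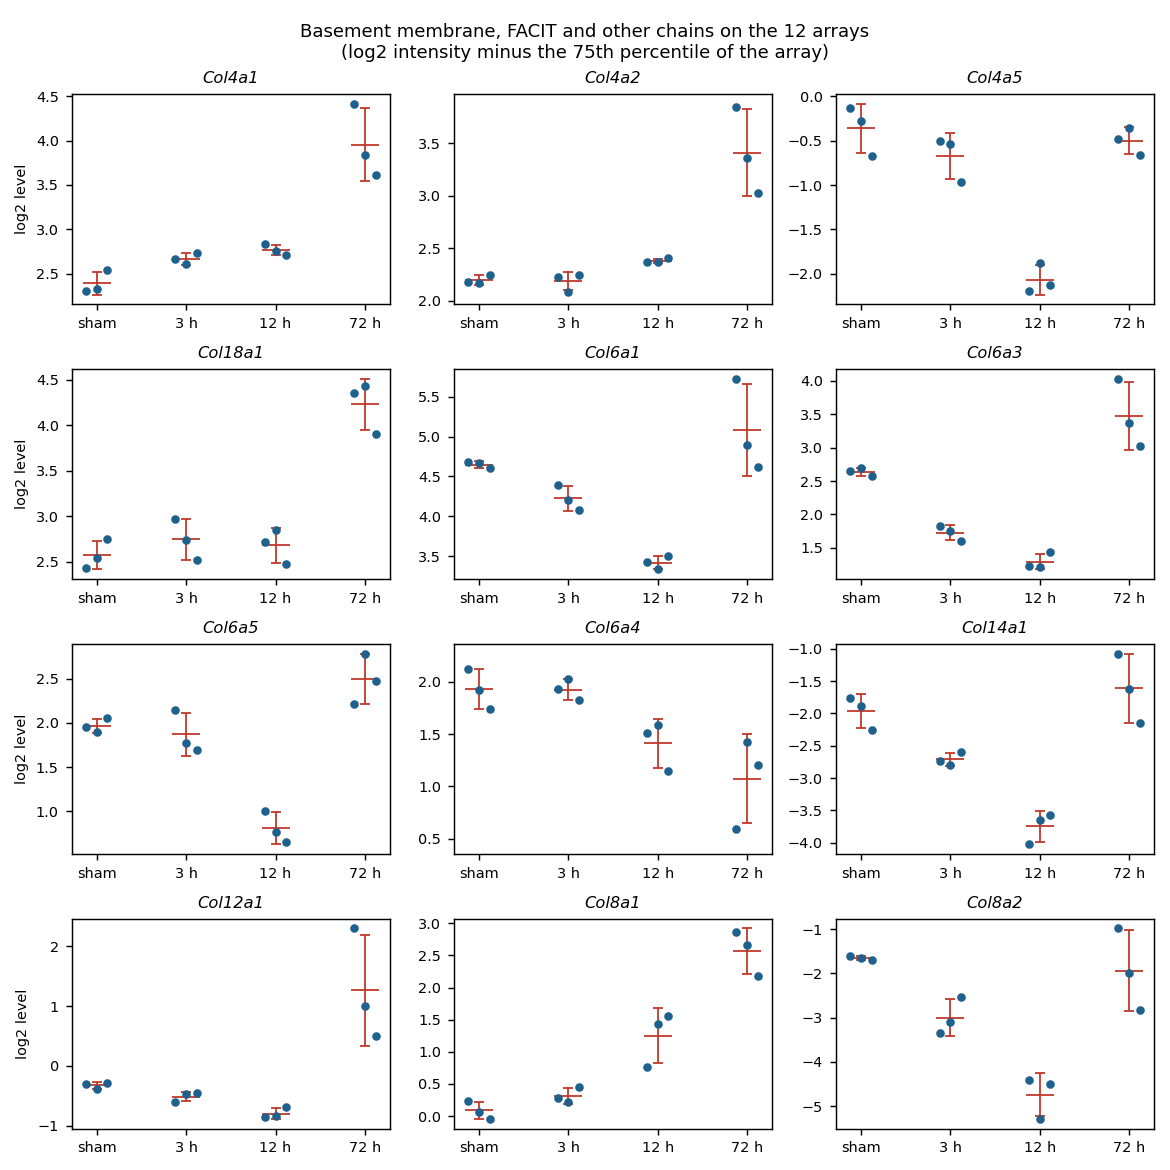
Log2 level relative to the 75th percentile of the array (y axis, a scale of its own in each panel) of 12 chain genes outside the fibrillar class, with a point for each array and the mean and SD of 3 arrays. Col4a1, Col4a2, Col18a1 and Col12a1 were high at 72 h only, Col4a5, Col6a1, Col6a3, Col6a5, Col14a1 and Col8a2 were lowest at 12 h, Col6a4 had its lowest mean at 72 h, and Col8a1 was above sham on all arrays from 12 h on.

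Type VI collagen forms beaded filaments around cells, mainly from Col6a1, Col6a2 and one longer chain. The 3 classic chains fell at 12 h and at 72 h did not pass the calling rule against sham. For Col6a1 the arrays read 4.68, 4.66 and 4.61 (sham), 4.39, 4.21 and 4.08 (3 h), 3.42, 3.34 and 3.50 (12 h) and 5.72, 4.90 and 4.62 (72 h). The array values of Col6a2 were 1.63, 1.81 and 1.66 (sham), 1.30, 1.21 and 1.04 (3 h), 0.35, 0.42 and 0.70 (12 h) and 3.00, 2.05 and 1.74 (72 h). Col6a3 read 2.65, 2.70 and 2.57 in sham, 1.83, 1.75 and 1.61 (3 h), 1.23, 1.22 and 1.43 (12 h) and 4.03, 3.38 and 3.02 (72 h). In each of them the 12 h arrays were lowest without overlap, and the 72 h arrays lay within or above the sham range. All 72 h arrays of Col6a3 lay above its sham arrays. At 72 h against sham Col6a1 changed by 0.43, Col6a2 by 0.56 and Col6a3 by 0.84, all under the 2-fold threshold. The limma adjusted p was 0.233, 0.176 and 0.0206. The log2 fold changes at 12 h were -1.23 ± 0.23, -1.21 ± 0.27 and -1.34 ± 0.21, with limma adjusted p of 0.00436, 0.00965 and 0.00168. From 12 h to 72 h the log2 fold changes of Col6a1, Col6a2 and Col6a3 were 1.66 ± 0.23, 1.77 ± 0.27 and 2.18 ± 0.21. Further probes of Col6a2 (0.93 and 1.03) and Col6a3 (0.84 and 1.46), above background on all 12 arrays, rose less over that interval. The difference from the brightest probe had limma adjusted p of 0.173 and 0.0348 for Col6a2 and of 0.00272 and 0.0477 for Col6a3. Against sham the difference at 72 h of Col6a3 was 0.41 ± 0.05 larger than that of Col6a1 (exact permutation test, two-sided p = 0.1).

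The longer alternative chains are encoded by Col6a4, Col6a5 and Col6a6. Levels of Col6a5 were 1.95, 1.89 and 2.05 (sham), 2.14, 1.78 and 1.69 (3 h), 1.01, 0.76 and 0.65 (12 h) and 2.22, 2.78 and 2.48 (72 h). Col6a5 fell at 12 h (-1.16 ± 0.17, adjusted p = 0.0012) and lay above all sham arrays at 72 h by less than the 2-fold threshold (0.53 ± 0.17, adjusted p = 0.0566). Sham arrays gave 2.12, 1.92 and 1.74 for Col6a4, followed by 1.93, 2.02 and 1.82 (3 h), 1.51, 1.58 and 1.15 (12 h) and 0.60, 1.42 and 1.20 (72 h). Col6a4 was lower at 72 h than on any sham array, with a log2 fold change of -0.85 ± 0.21, adjusted p = 0.0177 that did not reach 2-fold, and Col6a6 was not well above background on any array. The 3 genes lie side by side on chromosome 9, with probes at chr9:105892911-105892970 (Col6a4), chr9:105759441-105759500 (Col6a5) and chr9:105676597-105676655 (Col6a6) of mm9.

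The 2 chains of type VIII, a network collagen of vessel walls and of the sheet under corneal endothelium, were called in opposite directions at 12 h. For Col8a1 the arrays read 0.23, 0.07 and -0.04 (sham), 0.28, 0.22 and 0.46 (3 h), 0.76, 1.43 and 1.56 (12 h) and 2.86, 2.66 and 2.17 (72 h). Col8a1 was the one chain gene called higher at 12 h (1.16 ± 0.23, adjusted p = 0.00518), and it rose further at 72 h (2.48 ± 0.23, adjusted p = 0.000106). The array values of Col8a2 were -1.60, -1.64 and -1.70 (sham), -3.36, -3.11 and -2.54 (3 h), -4.42, -5.30 and -4.51 (12 h) and -0.98, -1.99 and -2.83 (72 h). Col8a2 fell at 3 h (-1.35 ± 0.42, adjusted p = 0.0477) and further at 12 h (-3.09 ± 0.42, adjusted p = 0.00068), the largest fall of any chain above background in sham, and at 72 h its arrays lay on both sides of the sham values (-0.29 ± 0.42, adjusted p = 0.66). On 1 of the 12 h arrays it was not well above background. The 3 h call was lost under 15 of 27 alternatives, among them both the slide and the replicate block and leaving out any 1 sham or 3 h array, and the further fall from 3 h to 12 h was lost under 11. The 12 h value was -0.90 and not called with normexp background correction. The difference Col8a1 minus Col8a2 ranged from 1.66 to 1.84 in sham and from 5.18 to 6.73 at 12 h, a shift of 4.26 ± 0.45 (exact permutation test, two-sided p = 0.1).

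Of the remaining chains, Col23a1, a membrane-bound collagen, fell at 12 h (-1.14 ± 0.20, adjusted p = 0.00322) and at 72 h differed by -0.90 ± 0.20, adjusted p = 0.0118, under the 2-fold threshold. Col13a1, a membrane collagen of muscle and nerve endings, differed by -0.71 ± 0.16, adjusted p = 0.0121 at 72 h, and Col7a1, the anchoring fibril chain of epithelia, by -0.66 ± 0.16, adjusted p = 0.0134 at 12 h, both short of 2-fold. Col17a1, the collagen of hemidesmosomes, Col26a1 and Col28a1 were not called in any comparison on their brightest probes. The 2 dimmer probes of Col26a1, well above background on 4 and 10 arrays, were called higher at 72 h, by 2.04 and 1.40 (limma adjusted p = 0.00343 and 0.014).

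Several genes have further probes, and for the type I and III chains, as for some others, these did not move alike. The brightest probes lie in the RefSeq mRNAs, while others were designed on Ensembl transcripts and lie elsewhere in the gene, for Col1a2 at chr6:4479333-4479392 (ENSMUST00000148864) and chr6:4464456-4464515 (ENSMUST00000138511) of mm9. At 3 h, the Col1a2 probes had log2 fold changes of -2.72 and -2.73 there, beside -0.73 for the brightest probe. The differences of -1.99 ± 0.29 and -1.996 ± 0.35 had limma adjusted p of 0.00456 and 0.0104 over 19531 such pairs of probes of a gene. From 3 h to 12 h these probes went the other way, by 1.04 and 0.85, while the brightest probe fell by 1.09, and the difference passed the test for both (limma adjusted p = 0.00912 and 0.0279). At 72 h they did not differ detectably from the brightest probe (limma adjusted p = 0.67 and 0.529).

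The pattern was similar for a Col1a1 probe at chr11:94814188-94814247 (ENSMUST00000001547), which moved by -1.81 on the log2 scale beside -0.79, a difference of -1.02 ± 0.17 (limma adjusted p = 0.00842). A second RefSeq probe of Col1a1, which overlaps the brightest, had -0.77. For Col3a1 the probes at chr1:45381765-45381824 and chr1:45373784-45373843 had -2.31 and -2.21 beside -0.63, with differences of -1.68 ± 0.44 and -1.59 ± 0.46 (limma adjusted p = 0.0448 and 0.062, the latter not passing). There were 15 further collagen probes above background on all arrays together with the brightest probe of their gene. Of these, 3 differed from it by more than 2-fold with a limma adjusted p below 0.05 at 3 h, where 3.69% of 10212 such pairs did over all genes. The direction at 3 h for type I and III chains is thus the same on all of these probes, and its size depends on the probe. The probes named above that were designed on Ensembl transcripts were themselves called lower than sham at 3 h. Their limma adjusted p was 0.00828 (Col1a1), 0.00382 and 0.00516 (Col1a2) and 0.0277 and 0.0389 (Col3a1). The brightest probes of these genes were not called there. These pairs were compared after the values had been seen.

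**Figure D3:**
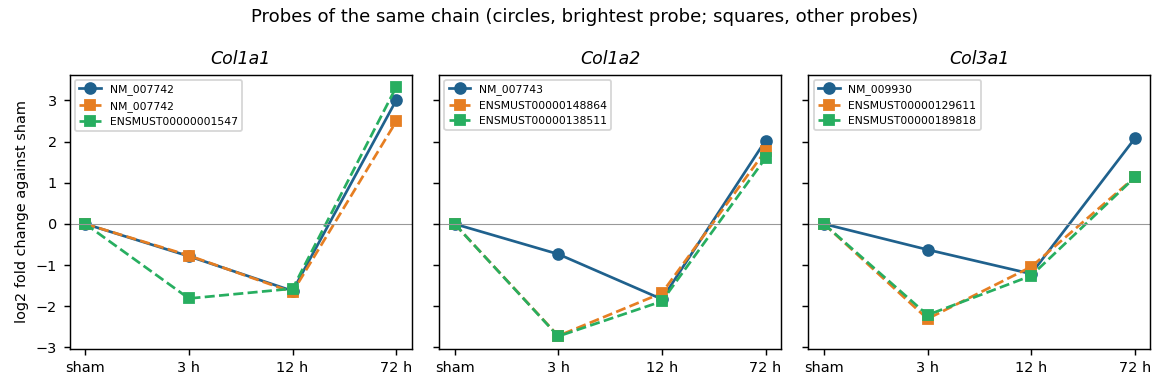
Log2 fold change against sham (y axis) by group (x axis) for the probes of Col1a1, Col1a2 and Col3a1 that were well above background on at least 11 arrays, with circles for the brightest probe, squares for others and the transcript each was designed on in the key. The probes designed on Ensembl transcripts were lowest at 3 h, the RefSeq probes at 12 h.

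Genes that fold, export, trim and crosslink collagen were measured beside the chains. Of 20 measured genes for folding and export 11 were called higher at 72 h and none lower (median log2 fold change 1.15), where 4.55% and 4.3% of all genes were. The lysyl hydroxylase Plod2 rose by 2.58, the collagen chaperone Serpinh1 by 2.38, the prolyl hydroxylase subunit P4ha2 by 2.36 and the prolyl isomerase Fkbp10 by 2.18. None of these 4 was called at 12 h, with log2 fold changes of 0.13, 0.13, 0.50 and -0.31. The general chaperone Hspa5 was higher at 12 h (1.66) and fell by 1.02 from 12 h to 72 h, and Colgalt2, a collagen galactosyltransferase above background on 1 array only, was called lower at 3 h and 12 h.

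Of 14 genes for propeptide cleavage and crosslinking 8 were called higher at 72 h and none lower (median 1.42), where 4.55% and 4.3% of all genes were. Lox, the lysyl oxidase that crosslinks fibrillar collagen, had the largest change among them, 5.85 in log2 fold change (limma adjusted p = 1.74e-05), and was already higher at 12 h (1.47) when Col1a1 and Col1a2 were lower. Loxl2, of the same family, rose by 2.29, the N-propeptidase Adamts2 by 2.23 and the C-propeptidase Bmp1 by 2.01. Pcolce, the enhancer of Bmp1, was called lower at 12 h (-1.50) as the type I chains were, and higher at 72 h (1.23).

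Proteins that coat or bind fibrils included 5 of 14 genes higher at 72 h and none lower, and 7 of 14 lower at 12 h and none higher (medians 0.97 and -1.31). Of all genes 4.55% were higher at 72 h and 4.96% lower at 12 h. Fibronectin (Fn1) rose by 1.61, lumican (Lum) by 1.47, Sparc by 1.37, and decorin (Dcn) and biglycan (Bgn) by 1.18 each at 72 h. At 12 h osteoglycin (Ogn) had the largest fall (-3.27), and Lum (-1.63) fell like the type I chains. Of 15 laminins, nidogens and other basement membrane partners 4 were higher at 72 h and none lower, led by Lama1 (2.55), Nid2 (1.79), Lama3 (1.69) and Pxdn (1.06), the peroxidase that crosslinks type IV collagen. Of 9 collagen receptors Mrc2, which takes up collagen, rose by 1.83 and the inhibitory leukocyte receptor Lair1 by 1.65 at 72 h, and none was lower. The fibroblast integrin Itga11 was lower at 3 h (-1.44) and 12 h (-2.33).

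**Figure D4:**
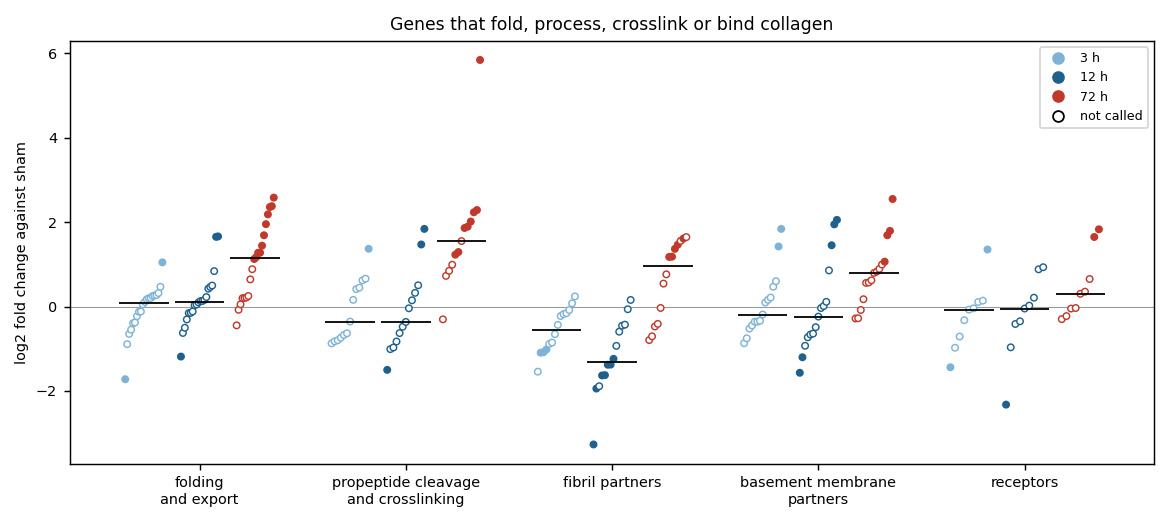
Log2 fold change against sham (y axis) of the measured genes above background on at least 1 array in 5 lists of collagen partners (x axis) for the 3 times after cautery, with a point for each gene, filled where called, and a line at the median. Called genes at 72 h were all higher, with Lox at 5.85 the highest, and called fibril partners at 12 h were all lower.

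With slide as a term in the model, which leaves 12 h replicate 3 as the link between slides, 6 in place of 17 chain genes were called at 72 h against sham. Col1a1 (2.86 ± 0.49, adjusted p = 0.0199), Col24a1 (4.50 ± 0.97, adjusted p = 0.0434), Col4a1 (1.64 ± 0.34, adjusted p = 0.0368), Col18a1 (1.97 ± 0.31, adjusted p = 0.014) and Col8a1 (2.01 ± 0.39, adjusted p = 0.0302) were still called higher by limma, and the dim Col4a3 was still called lower. Col1a2 (2.10 ± 0.55, adjusted p = 0.0798) and Col3a1 (1.74 ± 0.51, adjusted p = 0.108) were not, at 2.02 and 2.08 without the term, nor was Col2a1 (2.11 ± 0.69, adjusted p = 0.143), at 3.14 without it. From 12 h to 72 h 18 chains were called with the slide term, in place of 23. Within slide 2 alone, 12 h replicate 3 against the 3 arrays of 72 h, Col1a1 differed by 4.54 and Col1a2 by 3.91, and no chain passed the test by limma (adjusted p = 0.137 for Col1a1) with a single array at 12 h, whose spread was taken to be that of the 72 h group.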

How the data were processed

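RNA of 12 mouse cecum samples was hybridised to 1-colour Agilent arrays. Per the file headers, the deposited intensity values are processed signals of Agilent Feature Extraction 11.5.1.1 (background-subtracted) with probe coordinates in mm9, and the authors deposited a log2 table of the same arrays scaled to the 75th percentile (r = 0.999973 with the values used here). Outlier spots were left out, log2 intensities of the spots of a probe averaged, and the 75th percentile of each array subtracted. Precision is limited by 3 arrays a group, and since nothing says more of their independence than that they are triplicates, p-values measure the spread between these samples. A limma model (version 3.58.1, R 4.3.3) of the 4 group means was applied to all 56605 probes (5 comparisons), and the brightest probe stood for a gene. The fit was tested on simulated data for 72 h against sham: of 200 of 37074 genes changed by 1.5, 3 or 4 log2 units it called 67%, 93% and 96.5%.

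The members, classes, partner lists and markers were chosen with earlier results of these data known. Values per array are given for type I, III, IV and V chains and any chain called in 2 or more comparisons. Of each partner list up to 4 called members with the largest change at 72 h and those called against its majority are named, and of marker lists the brightest. A gene that this rule names is not reported here. Promoters are from RefSeq (GRCm38.p6). Alternatives covered scaling, background, dim probes, outliers, slide, pairing, test, probe choice, thresholds and each array left out. Of the further marker lists, 6 of 8 neutrophil genes were higher at 72 h and 5 of 12 epithelial genes lower, where 4.55% and 4.3% of all genes were. Of enteric glia and neuron, skeletal muscle and squamous markers 1 of 8, 1 of 8 and 1 of 6 were called at 72 h. In either direction 8.85% of all genes were called there.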

Additional observations from a re-analysis of the deposited data

Results flagged for a closer look

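The same contrast with sham gave different effects at different times for 23 chain genes between 12 h and 72 h and for 6 between 3 h and 12 h, by the direct limma comparison of both times. From 12 h to 72 h the log2 fold change of the fibrillar chains was 4.63 for Col1a1, 3.85 for Col1a2, 4.01 for Col2a1, 3.29 for Col3a1, 3.53 for Col5a1, 2.78 for Col5a2, 3.41 for Col5a3, 2.87 for Col11a1 and 4.31 for Col24a1. No 12 h array of Col24a1 was well above background, so that its change is given only as at least 8.68-fold. Among these, Col1a1, Col1a2, Col3a1 and Col5a2 were called lower than sham at 12 h and higher than sham at 72 h. In the basement membrane class it was 1.19 for Col4a1, 1.03 for Col4a2, 1.57 for Col4a5, 1.52 for Col15a1 and 1.55 for Col18a1. The FACIT chains Col12a1, Col14a1 and Col16a1 had 2.06, 2.14 and 2.11. Of the other chains Col6a1 had 1.66, Col6a2 1.77, Col6a3 2.18, Col6a5 1.69, Col8a1 1.31 and Col8a2 2.80.

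From 3 h to 12 h the change was -1.09 for Col1a2, -1.40 for Col4a5, -1.04 for Col14a1, -1.06 for Col6a5 and -1.74 for Col8a2. Col4a3 had -1.12, on a probe not well above background on any array.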

How the results depend on the processing

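Of the 62 calls over the 5 comparisons of chains above background on at least 1 of the 12 arrays, 33 were lost under at most 2 of the alternatives and 10 under more than 5, those of Col1a2, Col14a1, Col6a5 and Col8a2 for 12 h against 3 h, Col5a2, Col4a4 and Col19a1 at 12 h, Col8a2 at 3 h and Col15a1 at 72 h against sham and against 12 h. Counts of called chains moved by over 1.5 times as follows, listed as 3 h, 12 h and 72 h against sham, 12 h against 3 h and 72 h against 12 h, beside 2, 16, 17, 6 and 23. Normexp background correction gave 0 at 3 h (11 at an unadjusted limma p under 0.05), 8 at 12 h and 1 for 12 h against 3 h. The methods' t-test, a paired test that the statistics section of the study names for 2 groups and not for the arrays, gave 0 in all 5 after Benjamini-Hochberg, and 3, 16, 14, 6 and 17 at the fold threshold with unadjusted p under 0.05. With slide as a term 72 h against sham gave 6 and 12 h against 3 h gave 1. Within a slide 3 h against sham gave 4, and 72 h against 12 h gave 0 by limma (24 at an unadjusted p under 0.05). The mean of all probes gave 8 at 12 h and 3 for 12 h against 3 h, and reversed Col1a2 for 12 h against 3 h to 0.13. At 3 h, the percentile over probes above background gave 5, the trended robust fit 4 and calling a gene when at least as many of its probes are called as not 4. Leaving out 1 array gave 1 to 3, 13 to 17, 15 to 19, 1 to 6 and 21 to 24, the lowest at 72 h without replicate 1, and 1 for 12 h against 3 h without 3 h replicate 1 or without 12 h replicate 3. Counts restricted to chains that every array of one of both groups measured above background, chosen after seeing the data, were 2, 14, 16, 5 and 23. The cause of these shifts was not tested.

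Replicate numbers did not pair the arrays: same-numbered arrays correlated at r = -0.40 to 0.26 in their deviations from group means, 6 of 18 pairs over 0.1, and 2 of 12 arrays correlated best with their own number. With the replicate block the count at 3 h was 1, and 58 of the 62 calls held. Quantile normalization moved the median of all probes at 72 h by 0.12, and the percentile over probes above background that at 3 h by -0.11. Chains near background, such as Col4a4, Col19a1 and Col24a1, are limited by signal over background.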
